A study of Mus musculus with 3 samples.

Results

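Toll-like receptors were examined as 10 genes, listed by name and not by their levels. Earlier results of these data were known when the list was made. The proteins of Tlr1, Tlr2, Tlr4, Tlr5 and Tlr6 act at the cell surface. Those of Tlr3, Tlr7, Tlr8, Tlr9 and Tlr13 act in endosomes. For each transcript identifier the first table row with a value in all 3 libraries was kept, and these rows were summed for each gene. This gave a level for 9 of the 10 receptors, 4 at the surface and 5 endosomal, among 36835 genes. Tlr1 had 12 rows and none was complete, so its level is given only from all rows summed, with a missing value taken as 0. That sum exists for 36936 genes and is set beside the first measure for each receptor. A value listed at exactly 0 can be a failed estimate. Hsp90b1, a chaperone that all cells use, was listed at 0 in the library labelled M1 and at 356 and 204 FPKM in those labelled CD4 and M2.

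The study asked whether tumor-associated macrophages express Foxp3, and sequenced sorted cells of BALB/c mice that carried intra-kidney tumors of a mouse renal tumor cell line. The labels name the line as Renca, and the study's account of the sequencing names Renca Ch+ L+, its derivative with Cherry and luciferase reporters. M1 macrophages were gated as intermediate for the Emr1 protein and high for CD11b, M2 macrophages as high for the Emr1 protein and intermediate for CD11b, and CD4+ T cells by TCRb and CD4. Both macrophage subsets came from 30 pooled tumors and the T cells from 4 pooled spleens of tumor-bearing mice, without further treatment. The labels give both day 14 and day 16 for the harvest, and name both spleen and tumor for the T cells. Each subset had 1 library, so no difference has a replicate check, no test was possible, and a gene is counted as higher or lower when its ratio of FPKM + 1 reached 2-fold. FPKM counts sequenced fragments relative to transcript length and library size and is a level per length, which allows genes to be set side by side.

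Toll-like receptors recognize microbial products. Surface members bind lipopeptides, lipopolysaccharide or flagellin, while endosomal members bind nucleic acids and depend on the chaperone Unc93b1 to reach their compartment. Most signal through the adaptor Myd88 to NF-kB and interferon regulatory factors, and macrophages are among the cells known to use many of them.

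The subset genes went against the labels of 2 libraries, so the libraries are called by their labels throughout. Each of 14 measured T cell genes had its top level in the library labelled M2, and together they reached 2123 FPKM there, against 18.0 in that labelled CD4 and 6.46 in that labelled M1. The 13 macrophage genes summed to 13528 FPKM in the library labelled CD4, 648 in that labelled M2 and 8521 in that labelled M1, and none was at 0 in any of them. With all rows these sums were 13622, 24.6 and 11.5 FPKM for T cell genes in the order M2, CD4, M1. For macrophage genes they were 19113, 667 and 8540 in the order CD4, M2, M1. Single genes carried most of the rise. With all rows Cd5 was at 11066.5 FPKM in the library labelled M2, against 81.3 by the first complete row. C1qb was at 6644 FPKM in that labelled CD4, against 1481 by the first complete row. The macrophage genes include those of both gating proteins, Emr1 and, for CD11b, Itgam. By the first complete row, Emr1 was highest in the library labelled CD4 (215 FPKM), against 45.3 for M1 and 9.16 for M2. Itgam was highest in that labelled M1 (299 FPKM), against 201 for CD4 and 14.7 for M2. All rows kept both orders. Whether labels were exchanged between libraries was not tested. In bulk RNA, fewer cells of a type and less RNA per cell cannot be told apart. Depth is not recorded in FPKM. Estimates from the smallest values (in units of 1000000 fragments) were 61.1, 62.7 and 61.4 in the libraries labelled CD4, M2 and M1. Each library also had a lowest and a highest estimate. The library labelled CD4 had 61.1 as its lowest and 77.9 as its highest. That labelled M2 had 47.5 and 62.7, and that labelled M1 had 61.3 and 61.4.

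Positions of the receptor genes are given in build NCBIM37. Tlr1 (chr5:65316050-65324000) and Tlr6 (chr5:65344345-65351287) are neighbors on the reverse strand, as are Tlr8 (chrX:163680626-163702261) and Tlr7 (chrX:163742861-163768490). Tlr13 (chrX:103338543-103355832) is on the forward strand of the same chromosome. Tlr2 (chr3:83640195-83645689) and Tlr3 (chr8:46481019-46495962) are on reverse strands, and Tlr4 (chr4:66488618-66591318), Tlr5 (chr1:184884919-184906175) and Tlr9 (chr9:106124929-106129207) on forward strands.

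Tlr1 and Tlr6 are shown by sequence because their reads can be confused. Over the longest coding transcripts they share 448 windows of 51 bases, the read length, which is 17.2% of the 2602 windows of Tlr1 and 17.5% of the 2553 of Tlr6. No other pair of the 10 receptors shares such a window. The longest identical coding run is 229 bases, and 30 bases from its middle are given on the reverse strand, at chr5:65316876-65316905 in Tlr1 (coding bases 1567 to 1596 of 2385) and chr5:65345167-65345196 in Tlr6 (1606 to 1635 of 2418). No base in it differs between the genes.
Tlr1: acagcgggaaacaacccattccaatgcaca
Tlr6: acagcgggaaacaacccattccaatgcaca
Levels of Tlr1 and Tlr6 are therefore uncertain to the extent that reads from this stretch were divided between them by a model.

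Promoters were read because several receptors had lower levels in the same library. The window ran from 250 bases before to 50 after the start of the longest coding transcript, in 22367 promoters, on both strands. The core recognized by PU.1, a factor of myeloid cells, was searched as GAGGAA and was in 7 of the 10 receptor promoters, and in 27.7% of all. The promoters of Tlr5, Tlr6 and Tlr7 did not hold it. A link between these letters and the receptor levels was not tested. The letters TATAAA were in 3 of 10, and in 13.4% of all. An interferon regulatory factor element, TTTC and TTTC separated by any pair of bases, was in 0 of 10, and in 3.77% of all. A shorter form, GAAANNGAA, was searched after that count was known and was in 1 of 10, the Tlr8 promoter, and in 8.88% of all. A match describes letters in a window, and its absence says only that they are not in that window. Windows of 30 bases are shown in gene orientation for the surface receptors Tlr2 (chr3:83645880-83645909, reverse strand) and Tlr4 (chr4:66488399-66488428, forward strand), and the endosomal receptors Tlr8 (chrX:163702321-163702350, reverse strand) and Tlr9 (chr9:106124805-106124834, forward strand), with the PU.1 core or its reverse complement in capitals.
Tlr2: gcctccagtgttTTCCTCatggtgaactga
Tlr4: tgagaaaatatgTTCCTCtagtctgaaaca
Tlr8: tataaatgacttTTCCTCtgaattcagttt
Tlr9: ggagagtggaaaGAGGAAggggttgagggg

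Among surface receptors, Tlr2, the shared partner in lipopeptide recognition, was at 47.0 FPKM in the library labelled CD4, 6.25 in that labelled M2 and 11.2 in that labelled M1 by the first complete row. With all rows summed the values became 47.0, 8.75 and 58.9 FPKM. The order of the libraries labelled CD4 and M1 thus depended on rows: the log2 ratio of CD4 over M1 was 1.98 by the first complete row and -0.32 with all rows. A row at 39.3 FPKM and another at 8.51 held a value in the library labelled M1 only. The library labelled M2 was lowest by both measures.

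Tlr4, the lipopolysaccharide receptor, was at 11.6 FPKM in the library labelled CD4, 3.37 in that labelled M2 and 21.3 in that labelled M1, and all rows gave 11.6, 3.37 and 32.4. It was highest in the library labelled M1 and lowest in that labelled M2 by either measure. The log2 ratio of M2 over M1 was -2.35, and -2.93 with all rows. That of CD4 over M1 was -0.82, and -1.40 with all rows, which passed 2-fold.

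Tlr6, which pairs with Tlr2, was at 9.92, 3.44 and 6.41 FPKM in the libraries labelled CD4, M2 and M1. All rows left the first and last values and put that of M2 at 6.97, so the library labelled M2 stood level with that labelled M1 (log2 ratio 0.10). Tlr5, the flagellin receptor, had 14 rows, and its first complete row was at 0.541, 0.569 and 1.38 FPKM, the lowest of the 9 receptors in the libraries labelled CD4 and M1. All its rows summed to 10.7, 5.69 and 8.21 FPKM. No Tlr5 ratio reached 2-fold by either measure.

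Tlr1, the other partner of Tlr2, summed over its rows to 50.7 FPKM in the library labelled CD4, 48.5 in that labelled M2 and 18.1 in that labelled M1. Its highest single rows were 18.5, 18.1 and 14.3 FPKM in the same order. With rows summed it was the receptor whose level in the library labelled M2 exceeded that in M1 past 2-fold (log2 ratio 1.37), whereas the M2 over CD4 ratio was -0.06. The highest single rows differed by less than 2-fold between any pair of libraries.

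**Figure D1:**
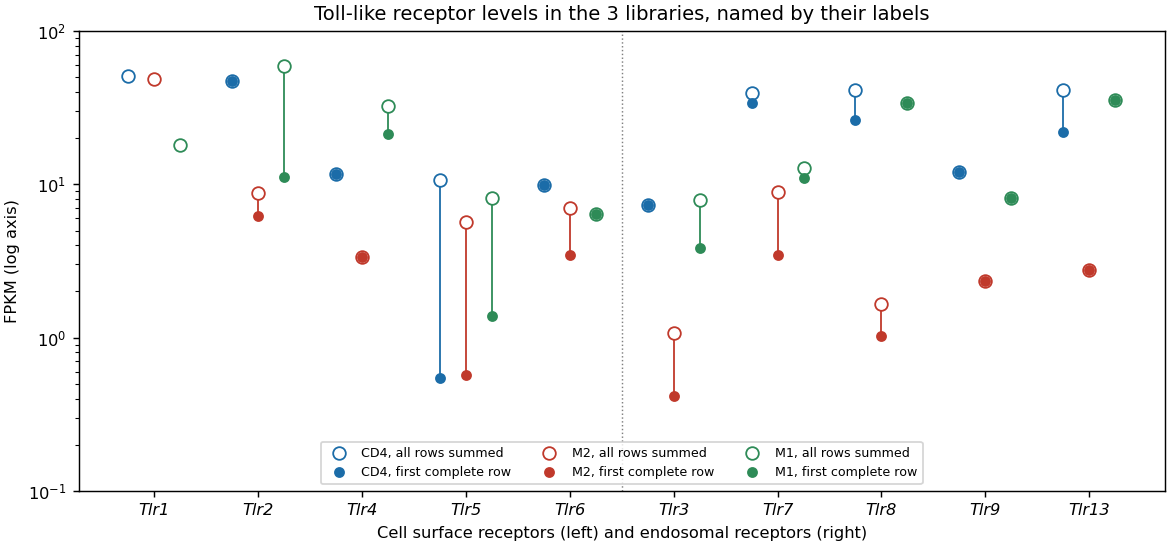
Level of each receptor in FPKM (log axis) in the 3 libraries, as the first complete row of each transcript (filled) and all rows summed (open), with a line joining both. Tlr2 in the library labelled M1 moved from 11.2 to 58.9 FPKM, while Tlr9, with 1 row, did not move.

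Among endosomal receptors, Tlr7, which binds single-stranded RNA, was at 34.2 FPKM in the library labelled CD4, 3.46 in that labelled M2 and 10.9 in that labelled M1. All rows gave 39.8, 8.97 and 12.8. Tlr7 was the receptor past 2-fold higher in the library labelled CD4 than in that labelled M1 by both measures (log2 ratios 1.56 and 1.57). Transcript Tlr7-001 was at 16.3, 3.46 and 6.58 FPKM and Tlr7-006 at 17.9, 0 and 4.36, in the order CD4, M2, M1. Tlr7-006 shares 100% of its bases with other Tlr7 transcripts, so the division between them rests on the authors' model.

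Tlr8, a close relative of Tlr7, was at 26.5 FPKM in the library labelled CD4, 1.03 in that labelled M2 and 33.8 in that labelled M1, and all rows gave 41.0, 1.65 and 33.8. The library labelled M2 was far below both others, with log2 ratios of -4.10 to M1 and -3.76 to CD4. The transcripts divided the level differently. Tlr8-001 was at 8.17 FPKM in the library labelled CD4 and 19.6 in that labelled M1. The short Tlr8-002 was at 18.3 in the library labelled CD4 and listed at 0 in the others, and the processed transcript Tlr8-004 was at 14.3 in that labelled M1 and listed at 0 in that labelled CD4. Of Tlr8-004, 100% of the bases lie in other Tlr8 transcripts, and of Tlr8-002 93.8%.

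Tlr13, a receptor for bacterial ribosomal RNA, was at 22.0, 2.77 and 35.3 FPKM in the libraries labelled CD4, M2 and M1. A further row at 19.1 FPKM with a value in the library labelled CD4 only brought that library to 41.1. The order of the libraries labelled CD4 and M1 changed with that row, at log2 ratios of -0.66 and 0.21, both under 2-fold. The library labelled M2 was lowest by either measure.

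Tlr9, the receptor for unmethylated CpG DNA, had 1 row, at 12.0, 2.35 and 8.16 FPKM in the libraries labelled CD4, M2 and M1. Its log2 ratios were -1.95 for M2 over CD4, -1.45 for M2 over M1 and 0.50 for CD4 over M1. Tlr3, which binds double-stranded RNA and signals through Ticam1 rather than Myd88, was at 7.30, 0.417 and 3.85 FPKM, and all rows gave 7.30, 1.07 and 7.91. It was lowest of the endosomal receptors in each library.

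**Figure D2:**
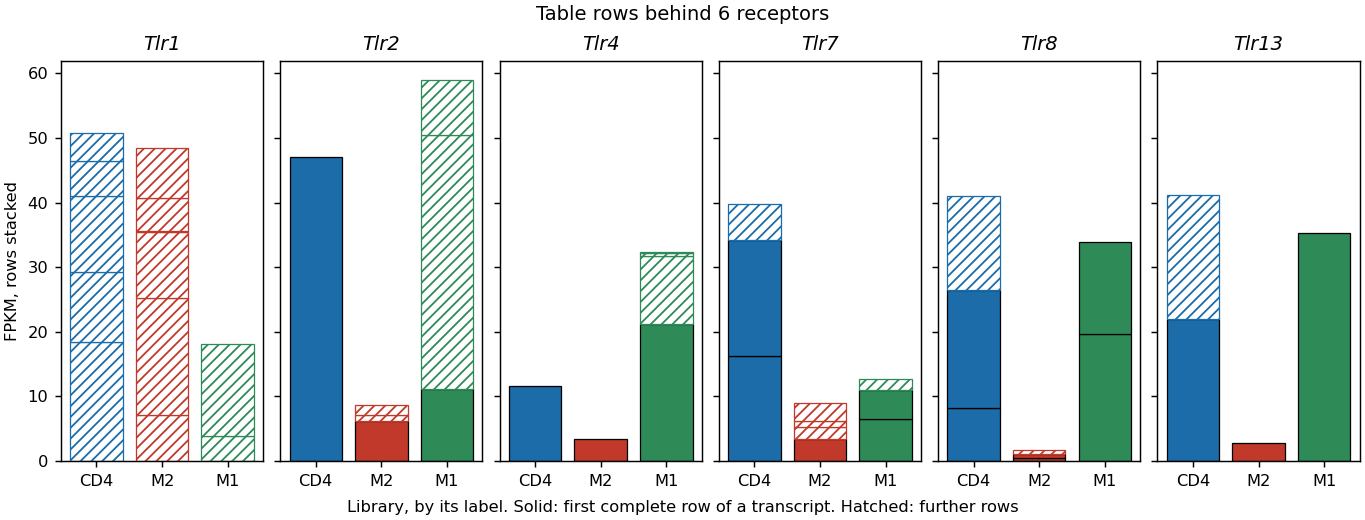
Rows behind 6 receptors, stacked in FPKM, for the libraries by label; solid segments are the first complete row of a transcript and hatched segments are further rows. All of Tlr1 (50.7, 48.5 and 18.1 FPKM for CD4, M2 and M1) and most of Tlr2 in the library labelled M1 stood in further rows.

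In the comparison of the libraries labelled CD4 and M1, 2 of 9 receptors were higher in CD4 (Tlr2 and Tlr7), against 2.20% of all genes and 6.14% of the 11859 genes with a mean of at least 1 FPKM, and 0 were lower, against 2.28% and 6.43%. With all rows, 2 of 10 were higher (Tlr1 and Tlr7), against 2.35% of genes, and 1 was lower (Tlr4), against 2.43%. Surface receptors had a median log2 ratio of -0.04 and endosomal receptors 0.50. With all rows these medians were 0.34 and 0.27, so the order of the groups depended on rows. The median over all genes was 0.

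In the comparison of the libraries labelled M2 and M1, 6 of 9 receptors were lower in M2, against 4.90% of all genes and 14.4% of those with a mean of at least 1 FPKM. These were Tlr4 and all 5 endosomal receptors, and 0 were higher, against 5.73% and 15.5%. With all rows 6 of 10 were lower, against 5.08% of genes, namely Tlr2, Tlr4, Tlr3, Tlr8, Tlr9 and Tlr13, and Tlr1 was higher, against 7.60%. The medians were -0.74 for surface and -1.78 for endosomal receptors, and -0.46 and -2.11 with all rows.

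In the comparison of the libraries labelled M2 and CD4, 8 of 9 receptors were lower in M2, all but Tlr5, against 5.17% of all genes and 15.2% of those with a mean of at least 1 FPKM. None was higher, against 5.85% and 15.9%. With all rows 7 of 10 were lower, against 5.37% of genes, and 0 were higher, against 7.72%. All 5 endosomal receptors were past 2-fold by both measures, with medians of -2.61 and -2.03. Of the surface receptors, Tlr2 and Tlr4 were past 2-fold by both measures, and the medians were -1.41 and -0.80. The libraries are shared between comparisons, so the 3 sets of ratios are not independent.

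**Figure D3:**
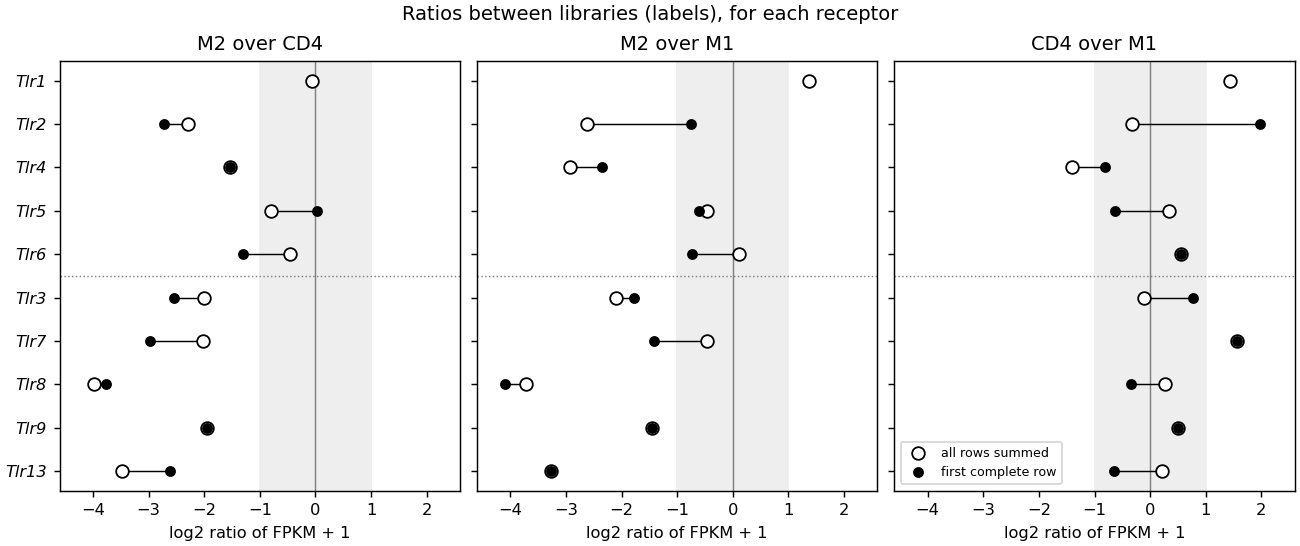
Log2 ratio of FPKM + 1 for each receptor in 3 comparisons, from the first complete row (filled) and all rows summed (open), with ratios under 2-fold shaded. Endosomal receptors, under the dotted line, all lie left of the shading for M2 over CD4, and Tlr2 crosses 0 for CD4 over M1.

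Endosomal receptors made up 59.6% of the summed receptor FPKM in the library labelled CD4, 42.4% in that labelled M2 and 69.6% in that labelled M1. Short Tlr8 transcripts were part of these endosomal sums. Tlr8-002 gave 18.3 of 102 FPKM in the library labelled CD4, and Tlr8-004 gave 14.3 of 92.1 in that labelled M1. The shares depend on how the level was divided between Tlr8 transcripts. With all rows, Tlr1 included, the shares were 52.1%, 18.7% and 44.1%. The library labelled M2 had the lowest share by both measures, and Tlr1 alone gave 48.5 of its 90.1 FPKM with all rows.

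The macrophage genes also were lower in the library labelled M2, each of the 13 past 2-fold from both others. They stood at 3.92% to 24.4% of their level in the library labelled M1, with a median of 10.2%. The receptors stood at 3.03% to 56.0%, with a median of 28.9%, and 5 of 9 were above the highest macrophage gene (Tlr2, Tlr5, Tlr6, Tlr7 and Tlr9). With all rows the macrophage genes stood at 5.02% to 29.8%, and 4 of 10 receptors were above the highest (Tlr1, Tlr5, Tlr6 and Tlr7). Relative to the library labelled CD4 the macrophage genes stood at 1.68% to 15.3%, with a median of 3.78%. The receptors stood at 3.87% to 105% of that library, with a median of 13.3%. There 4 of 9 receptors were above the highest macrophage gene by the first complete row, and 7 of 10 with all rows. Other lists had their highest sums in the library labelled M2, each set against CD4 and then M1: 8 B cell genes summed to 63.9 FPKM against 11.8 and 1.62, 9 neutrophil genes to 238 against 12.5 and 68.5, 7 dendritic cell genes to 143 against 3.80 and 32.8, and 9 kidney epithelium genes to 193 against 94.5 and 73.3. Ccr7, which T cells also express, gave 122 of the 143 FPKM, while Cd209a was at 23.7 FPKM in the library labelled M1 and 3.53 in that labelled M2, and Zbtb46 was also highest in that labelled M1. By gene and first complete row, the library labelled M2 was highest for 5 of 8 B cell, 7 of 9 neutrophil, 5 of 7 dendritic cell and 5 of 9 kidney genes. Cd22 was at 11.3 FPKM in the library labelled CD4 and 11.0 in that labelled M2. Mmp8 was at 15.9 FPKM in the library labelled M1 and 1.08 in that labelled M2. Cdh16, Krt8 and Krt18 (87.8, 54.6 and 35.8 FPKM) made up most of the kidney sum in that labelled M2. Of these lists 2 B cell genes and 1 neutrophil gene were at 0 in the library labelled M2 by the first complete row. With all rows Pax5 was at 6.49 and Ly6g at 1.26 FPKM there, each the highest of the 3 libraries. Umod then was highest in the library labelled CD4, at 17.0 against 4.42 in that labelled M2. The library labelled M2 kept the highest sum of each of these lists with all rows. The part of any of these cells in the receptor levels was not tested.

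The pathway around the receptors was taken from a list of 43 genes, of which 41 had a level. In M2 over M1, 9 were higher and 10 lower, or 8 and 9 with all rows, beside 15.5% and 14.4% of genes with a mean of at least 1 FPKM. In M2 over CD4, 9 were higher and 9 lower, or 8 and 10 with all rows, beside 15.9% and 15.2%. In CD4 over M1, 2 were higher and 3 lower, or 2 and 4 with all rows, beside 6.14% and 6.43%. Hsp90b1 is counted as higher against M1 in both comparisons with that library because it was listed at 0 there. Other calls by the first complete row also rest on a level listed at 0. Ikbkg, counted as higher in M2, was at 0 in the libraries labelled CD4 and M1. Ticam2, Unc93b1 and Irak3, counted as lower in M2, were at 0 in that library. Accessory proteins of the surface receptors went both ways in the library labelled M2. Cd14, which hands lipopolysaccharide to Tlr4, was at 136, 24.3 and 154 FPKM in the libraries labelled CD4, M2 and M1, and Cd180, a relative of Tlr4, was at 27.3, 3.56 and 14.8 (31.0, 14.7 and 27.8 with all rows, where M2 over M1 no longer passed 2-fold). Ly86, the partner of Cd180, was at 232, 16.6 and 133. Lbp, the lipopolysaccharide-binding protein, was higher in M2 over M1, at 7.14, 15.0 and 6.76 FPKM (log2 ratio 1.04).

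Unc93b1, the endosomal chaperone, was at 114 FPKM in the library labelled CD4 and 116 in that labelled M1 and listed at 0 in that labelled M2, where all rows gave 16.8. Irf5, a transcription factor downstream of Myd88, was at 54.8, 10.2 and 124 FPKM and passed 2-fold in all 3 comparisons. The shared adaptor Myd88 was at 45.8, 25.9 and 66.8 FPKM. Of 14 kinases and ubiquitin ligases, 2 were higher and 1 lower in M2 over M1, and 5 were higher and 0 lower in M2 over CD4, or 3 and 0 with all rows.

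Of the negative regulators, 4 of 7 passed 2-fold upward in M2 over M1, or 3 with all rows, and 4 of 7 in M2 over CD4 by both measures, beside 15.5% and 15.9% of genes with a mean of at least 1 FPKM. Sigirr, an inhibitory receptor, was at 1.66, 28.2 and 1.28 FPKM in the libraries labelled CD4, M2 and M1 (5.09, 28.2 and 8.92 with all rows), and the deubiquitinase Tnfaip3 was at 4.32, 21.0 and 7.44 (7.42, 27.7 and 12.4 with all rows). Irak3, an inhibitory kinase relative, was at 4.68 and 8.98 FPKM in the libraries labelled CD4 and M1 and listed at 0 in that labelled M2.

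**Figure D4:**
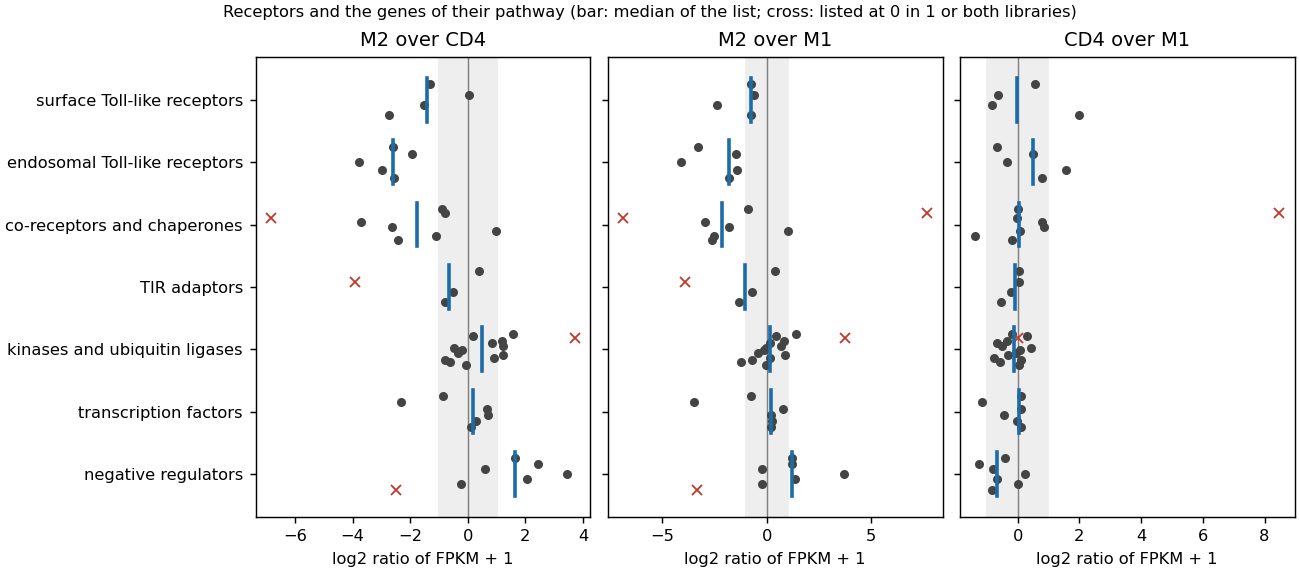
Log2 ratio of FPKM + 1 for receptors and pathway genes from the first complete rows, 1 point a gene, with the list median as a bar, ratios under 2-fold shaded and crosses for genes listed at 0 in a library. For M2 over M1 the endosomal receptors had a median of -1.78 and the negative regulators 1.19.

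Levels most like those of 4 receptors over the 3 libraries were sought among protein-coding genes. The measure was Euclidean distance between log2(FPKM + 1) values from the first complete rows. Nearest to Tlr2 was Nrp1 (distance 0.24), to Tlr4 Socs6 (0.28), to Tlr7 Dcxr (0.16) and to Tlr9 Gas2l3 (0.16). The first complete rows held 18.9% of all FPKM of Tlr2 in the library labelled M1. For Tlr7 they held 38.6% in that labelled M2. The nearest genes could therefore differ with all rows. With 3 libraries the likeness is a description of levels only.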

How the data were processed

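Paired reads of 51 bases were aligned by the authors to MM9 with TopHat and Bowtie, and transcript levels were estimated with Cufflinks on Ensembl release 67. The authors deposited FPKM values in 1 table of 135070 rows, with 1 column for each of 3 libraries. A dash stood where a value was missing, and how assemblies were joined is not given in the sources used here. Columns were assigned by their headings alone. Genes were named from GENCODE for NCBIM37 (Ensembl release 65), which held 97.6% of 92519 identifiers.

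Ratios were log2 of FPKM + 1, which understates changes of low genes, and were counted at 2-fold. With 1 library per subset no test was made. Depth was estimated from 1288 transcripts of 2500 to 8000 bases. The code for ratios and depth estimates was tested on simulated data. There the first complete row of each gene held its true level by design, so the choice of rows was not tested. The members and lists were chosen with earlier results of these data known. The genes named were all members, pathway genes past 2-fold or highest in their list, nearest genes, and cell type markers where a result turned on them. Sums over all rows with a dash as 0, and the highest value per library, were chosen after seeing the data, as was the shorter interferon regulatory factor motif. Python 3.11.15, numpy 2.4.6 and pandas 2.3.3 were used.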

Additional observations from a re-analysis of the deposited data

Results flagged for a closer look

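Several receptors had more FPKM in rows outside the first complete row than in it, and these values did not enter the level from the first complete row. For Tlr1 they were 50.7 FPKM in the library labelled CD4, 48.5 in that labelled M2 and 18.1 in that labelled M1. For Tlr2 they were 47.8 in the library labelled M1. For Tlr5 they were 10.1 in the library labelled CD4, 5.12 in that labelled M2 and 6.83 in that labelled M1. In the library labelled M2 they were 3.53 for Tlr6, 0.649 for Tlr3 and 5.50 for Tlr7, and in that labelled M1 they were 4.05 for Tlr3. Among 11489 protein-coding genes with a mean of at least 1 FPKM over all rows, 55 (0.479%) had no complete row, as Tlr1 did. The ratio moved by over 2-fold between both measures in 7.99% of these genes for CD4 over M1, 12.0% for M2 over M1 and 12.2% for M2 over CD4.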

How the results depend on the processing

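No paired analysis was possible because only 1 library was made for each subset. With all rows summed, the count lower in CD4 than in M1 went from 0 to 1, that higher in M2 than in M1 from 0 to 1, and Tlr2 in CD4 over M1 reversed to -0.32. With the highest value per library, the count higher in CD4 than in M1 went from 2 to 1. With a pseudocount of 0.1 the count lower in CD4 than in M1 was 1. The endosomal share was 58.1%, 58.3%, 52.1% and 55.5% in the library labelled CD4 with all complete rows, the highest complete row, all rows and the highest value per library. In the same order it was 37.9%, 38.7%, 18.7% and 28.9% in that labelled M2, and 68.0%, 68.7%, 44.1% and 52.8% in that labelled M1. The cause was not tested. A ratio was called moved when it shifted beyond the counting error of its estimated fragments, and reversed when a ratio past 2-fold changed sign. Fragments were estimated from the summed FPKM of a gene and the length of its longest coding transcript. For Tlr8 the short Tlr8-002 and Tlr8-004 (485 and 491 bases) were thus counted at 3431 bases, which understates its counting error. Scaling by the median of ratios moved 0 of 27 receptor ratios. Rescaling to a total of 1000000 moved 8, and the pseudocount of 0.1 moved 19. All rows summed moved 18 and reversed 1. Ratios under 2-fold also changed sign with all rows. These were Tlr3, Tlr5, Tlr8 and Tlr13 in CD4 over M1, Tlr6 in M2 over M1 and Tlr5 in M2 over CD4. Neither scaling nor the pseudocount changed the sign of a ratio. Without replicates and with levels that carry no counts, differences of any size, near 2-fold or larger, cannot be separated from variation between libraries.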
